A study of Homo sapiens with 8 samples.

Results

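Tight junction genes were followed in HSC39 cells, a human gastric cancer line of the signet ring cell type, in which TRIM44 was targeted by small interfering RNA (siRNA). The genes were 10 by name, CLDN1, CLDN2, CLDN3, CLDN4, CLDN7, CLDN12, CLDN18, OCLN, TJP1 and CGN, and their members on the array were the probe sets annotated with 1 of these symbols alone. For 9 of the 10 there was 1 such probe set each, out of 18404 genes named in the same way. The probe set of OCLN, the occludin gene, carries a second symbol, so OCLN has no value here.

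Of the 8 arrays, 2 were of cells given TRIM44 siRNA 7 and 2 of cells given TRIM44 siRNA 9, both at 100 nM (written nm) for 48 h, and 4 were of cells given All Stars negative siRNA. All were of the 1 cell line, and the series' design text speaks of 4 biological replicates in each condition, which takes both reagents together, and of untreated cells where the labels say negative siRNA. What made them separate, such as different cultures or days, is not stated, so the spread behind each p-value is that of these arrays and may be partly technical. Since the treatment text describes the negative samples as given TRIM44 siRNA too, groups were taken from the sample labels. RNA was measured in bulk, so fewer cells with a transcript and less transcript per cell cannot be told apart.

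Tight junctions close the gap between epithelial cells near their apical side. Claudins are membrane proteins whose loops meet those of the neighbouring cell and either seal the gap or leave pores for ions, and most end in a short motif that binds the ZO scaffold proteins, which in turn hold cingulin and actin. In the stomach this barrier keeps acid out of the tissue, and a stomach-specific form of claudin-18 is one of its main claudins. Carcinomas often change their claudin set, and transcription factors of the SNAI and ZEB families repress several claudin genes through the motif CACCTG.

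All values are log2 levels as deposited, 1 per probe set and array, with array medians between 6.78 and 6.87, and a difference of 1 on this scale is a factor of 2 in signal. Levels of different probe sets are not comparable, and the deposited table holds no background call, so a low level is not a statement that a gene is silent. The number of arrays limits the precision. Across probe sets, any pair of arrays had a correlation of 0.991 to 0.997. TRIM44 itself stood at 10.85 and 11.27 with siRNA 7 and at 11.10 and 11.14 with siRNA 9, against 11.91, 12.02, 11.91 and 11.77 with negative siRNA, so every siRNA array lay below every negative array. The difference with both reagents as 1 condition was -0.81 (SE 0.10, limma adjusted p = 0.0449), and a 2-sided exact permutation test over 70 assignments gave p = 0.0286, the smallest it allows. The difference was -0.87 to -0.73 when any 1 array was omitted, and the adjusted p was 0.0587 or higher without any 1 array other than siRNA 7 array 2. The epithelial markers EPCAM, KRT8, KRT18, KRT19 and CDH1 had mean levels of 11.78 to 13.05, and 0 of 5 passed the threshold in any comparison. CDH1, the E-cadherin gene, came nearest, at -0.38 with siRNA 9 (adjusted p = 0.0711). The mean level of the 5 was 12.20 to 12.25 on siRNA 7 arrays and 12.12 to 12.19 on siRNA 9 arrays, against 12.22 to 12.34 on negative arrays, and their part in the results was not tested. Of the gastric mucous cell markers TFF1 averaged 9.21, while GKN1, GKN2, TFF2 and MUC6 lay between 3.91 and 6.90, and 0 of these 5 passed in any comparison. Mesenchymal, leukocyte and endothelial markers likewise had 0 of 7, 0 of 4 and 0 of 5 past the threshold. Of all probe sets 0.00522% passed with both reagents, 0.0679% with siRNA 7, 0.924% with siRNA 9 and 2.23% between the reagents. With such shares the counts of 0 say little about the markers. The lowest difference in the mesenchymal list was -0.56 with siRNA 7 and -0.50 between the reagents. The lowest limma adjusted p in that list was 0.271 and 0.161. The leukocyte list held LYZ, the lysozyme gene that stomach epithelium can also express, at a mean of 11.53, and the other leukocyte markers lay between 4.23 and 6.49.

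The sequences printed here show where the transcripts measured by the probe sets begin. CLDN12 is shown because it is the member that differed between the reagents. CLDN18 is shown with both its starts because the probe set is annotated with both of its transcript variants, the lung form from the upstream start and the stomach form from the downstream start, so that its level is not that of the stomach form alone. CLDN7 is shown because its downstream start has the most copies of CACCTG. Each run is the 250 bases before a transcript start, from RefSeq on GRCh38.p14, and capitals mark CACCTG or its reverse complement CAGGTG.
CLDN12, chr7:90403211-90403460, plus strand: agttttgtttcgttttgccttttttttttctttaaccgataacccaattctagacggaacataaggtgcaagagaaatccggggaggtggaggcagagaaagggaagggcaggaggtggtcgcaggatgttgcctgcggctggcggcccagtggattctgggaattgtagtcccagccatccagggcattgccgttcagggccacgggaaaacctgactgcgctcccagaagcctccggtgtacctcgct
CLDN18 upstream start, chr3:137998566-137998815, plus strand: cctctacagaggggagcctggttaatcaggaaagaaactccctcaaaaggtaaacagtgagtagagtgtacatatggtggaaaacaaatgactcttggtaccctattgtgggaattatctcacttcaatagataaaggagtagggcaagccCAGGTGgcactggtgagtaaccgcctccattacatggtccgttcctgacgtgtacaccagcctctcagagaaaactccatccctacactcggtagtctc
CLDN18 downstream start, chr3:138009915-138010164, plus strand: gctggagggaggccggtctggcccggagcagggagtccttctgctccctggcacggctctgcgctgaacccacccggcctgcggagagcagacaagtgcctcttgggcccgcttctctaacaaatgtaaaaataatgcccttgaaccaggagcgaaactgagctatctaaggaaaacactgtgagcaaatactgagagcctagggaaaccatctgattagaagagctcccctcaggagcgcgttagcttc
CLDN7 downstream start, chr17:7262479-7262728, minus strand: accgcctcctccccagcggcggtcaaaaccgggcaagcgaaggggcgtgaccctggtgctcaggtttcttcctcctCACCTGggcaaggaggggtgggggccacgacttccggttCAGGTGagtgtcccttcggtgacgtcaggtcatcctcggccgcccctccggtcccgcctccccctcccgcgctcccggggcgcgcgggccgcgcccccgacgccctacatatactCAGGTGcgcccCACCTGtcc

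All 10 genes had at least 1 such window, 17 in all. The motif, searched on both strands, was in 5 of the 17 windows, beside 17.5% of the 35116 windows of this length in the table. No share by gene was computed over all genes. Among the members the motif was in 4 of the 10 genes (CLDN7, CLDN18, OCLN and TJP1), and a gene can have several windows. In the CLDN7 window it begins 174, 135, 20 and 9 bases before the start, and in the upstream CLDN18 window 99 bases before it. These are letters in a window and not measured binding.

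With both reagents taken as 1 condition, no measured tight junction gene passed the threshold against negative siRNA. Of the 9 members 0 passed an adjusted p of 0.05 in limma. None had an unadjusted p under 0.05 either, where 0.00522% and 5.43% of all 19158 probe sets did. The unadjusted count depends on the fit. With 3 group means in place of 2 groups, CLDN1 had an unadjusted limma p of 0.0334 (adjusted p = 0.595). With arrays weighted by their quality it was 0.0075 (adjusted p = 0.163). Members had differences from -0.09 for CGN to 0.21 for CLDN1, with 5 above 0 and 4 below, and a median of 0.01, as it was over all genes (0.01). The 95% intervals lay between -0.33, the lower bound for CGN, and 0.46, the upper bound for CLDN1. The siRNA arrays did not lie wholly above or below the negative arrays for any of the 9, which 2.86% of all probe sets did.

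CLDN1, CLDN3, CLDN4 and CLDN7 encode claudins that mainly seal the junction. CLDN7, which also binds the adhesion protein EpCAM, had the most even values, at 12.02 and 11.99 with siRNA 7 and 12.03 and 12.03 with siRNA 9, against 12.02, 12.001, 11.94 and 11.90 with negative siRNA. Its range over the 8 arrays was 0.13. The siRNA 9 arrays lay just above all negative arrays, by a mean of 0.06 (95% interval -0.12 to 0.25, adjusted p = 0.838). CLDN3 and CLDN4, neighbours on chromosome 7 whose proteins bind a Clostridium enterotoxin, were as close between groups. CLDN3 had 12.32 and 12.43 with siRNA 7 and 12.37 and 12.28 with siRNA 9, against 12.26, 12.38, 12.29 and 12.30 with negative siRNA, and the 3 groups overlapped. CLDN4 had 10.39 and 10.44 with siRNA 7 and 10.44 and 10.23 with siRNA 9, against 10.24, 10.59, 10.24 and 10.36 with negative siRNA. Here the negative arrays held both 10.59, the highest value, and values next to the lowest, so the spread within the control was wider than any difference between group means. The differences from negative siRNA were 0.05 with siRNA 7 and -0.02 with siRNA 9 for CLDN4, and 0.07 and 0.02 for CLDN3 (adjusted p = 0.993, 0.962, 0.979 and 0.967).

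CLDN1, the claudin of the skin barrier, was the member with the widest spread, an SD of 0.21 over the 8 arrays. It stood at 6.39 and 6.12 with siRNA 7 and 6.55 and 6.69 with siRNA 9, against 6.11, 6.33, 6.20 and 6.26 with negative siRNA. Both siRNA 9 arrays lay above all other arrays, while the siRNA 7 arrays overlapped the negative ones. The difference with siRNA 9 was 0.39 (SE 0.11, 95% interval 0.16 to 0.63), a factor of 1.31, and did not pass over all probe sets (adjusted p = 0.119). It passed without negative array 2 (0.43, adjusted p = 0.0381) and with arrays weighted by their quality (0.42, adjusted p = 0.00918), and in no other alternative in which it was tested; the filter on the upper 50% of probe sets left it out. With siRNA 7 the difference was 0.03 (95% interval -0.21 to 0.26, adjusted p = 0.998), and the reagents differed by -0.36 (SE 0.12, adjusted p = 0.161). That last value was -0.50 without siRNA 7 array 1 and -0.23 without siRNA 7 array 2 (adjusted p = 0.132 and 0.638). The pattern of CLDN1 over the 8 arrays was matched most closely, among all 18404 genes, by CA12, a carbonic anhydrase gene, SLC10A7 and CDKL4, measured as the root mean square difference of values centred on each gene's mean, which was 0.06 for each. With siRNA 9 these had 0.38, 0.37 and 0.35 over negative siRNA, and did not pass (adjusted p = 0.177, 0.0867 and 0.122). They were chosen for matching CLDN1 on these same arrays, so a like difference follows from the choice. CDKL4 lay at 3.55 to 4.04, below the array medians.

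**Figure D1:**
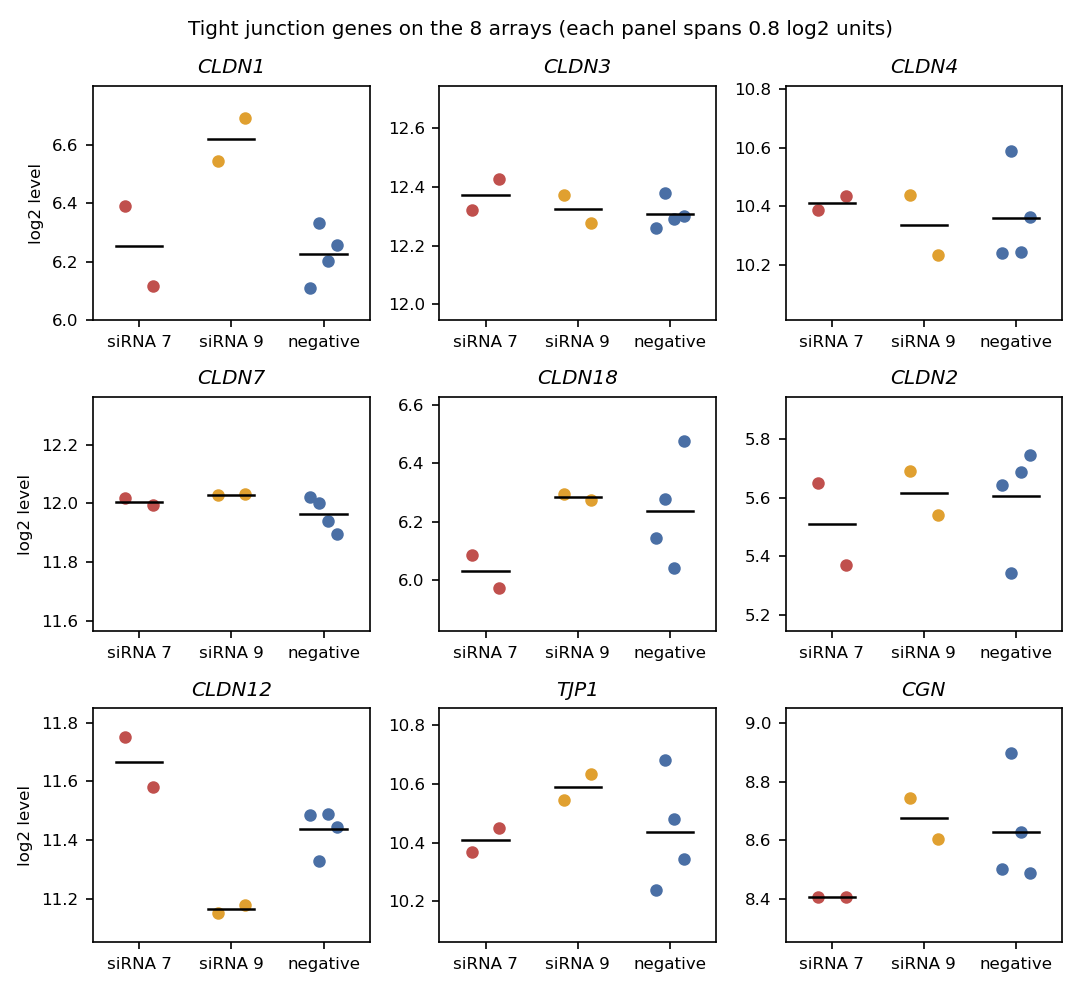
Log2 level (vertical axis) of the 9 tight junction genes on each array, by group (TRIM44 siRNA 7, n = 2; TRIM44 siRNA 9, n = 2; negative siRNA, n = 4). Points are arrays and bars are group means; each panel spans the same log2 range, so CLDN7 and CLDN3 appear flat while CLDN12 is high with siRNA 7 and low with siRNA 9, and CLDN1 is high with siRNA 9.

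CLDN18 had 6.09 and 5.97 with siRNA 7 and 6.30 and 6.27 with siRNA 9, against 6.14, 6.28, 6.04 and 6.48 with negative siRNA. Negative arrays alone spanned more than the distance between the reagents, which differed by -0.25 (95% interval -0.55 to 0.04, adjusted p = 0.412). Neither reagent moved it past the threshold against negative siRNA, with -0.20 for siRNA 7 (adjusted p = 0.806) and 0.05 for siRNA 9 (adjusted p = 0.919).

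CLDN2 and CLDN12 encode claudins linked to the passage of ions. CLDN2, whose protein forms a pore for cations and water, had 5.65 and 5.37 with siRNA 7 and 5.69 and 5.54 with siRNA 9, against 5.64, 5.34, 5.69 and 5.75 with negative siRNA. The 3 groups overlapped, and the differences were -0.09 with siRNA 7 (adjusted p = 0.979) and 0.01 with siRNA 9 (adjusted p = 0.982).

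CLDN12, whose protein lacks the usual ZO-binding end and is linked to calcium passage in the mouse, was the member that differed between the reagents. It stood at 11.75 and 11.58 with siRNA 7 and 11.15 and 11.18 with siRNA 9, against 11.49, 11.33, 11.49 and 11.44 with negative siRNA. Both siRNA 7 values exceeded the 4 negative values and both siRNA 9 values fell short of them, with no overlap among the 3 groups. The siRNA 7 level exceeded the siRNA 9 level by 0.50 (SE 0.11, 95% interval 0.27 to 0.74, adjusted p = 0.0368), a factor of 1.42. Against negative siRNA neither reagent passed, at 0.23 with siRNA 7 (SE 0.09, adjusted p = 0.591) and -0.27 with siRNA 9 (SE 0.09, adjusted p = 0.211), and with both as 1 condition the difference was -0.02 (adjusted p = 0.9999). With array weights the siRNA 9 difference passed, at -0.31 (adjusted p = 0.0197). CLDN12 was 1 of 9 members past the threshold between the reagents, where 2.23% of all probe sets passed.

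The call on CLDN12 lies near the threshold. The size stayed between 0.42 and 0.59 over omissions of a single array. The adjusted p was 0.0134 without negative array 2 and 0.0402 without negative array 4, and above 0.05 without any other. It was 0.0544 without negative array 1, 0.0733 without negative array 3, 0.174 when siRNA 7 array 1 and 0.0964 when siRNA 7 array 2 was omitted. It was 0.275 when siRNA 9 array 1 and 0.209 when siRNA 9 array 2 was omitted; a group left with 1 array takes its spread from the rest. The adjusted p was 0.0646 after quantile normalization (difference 0.44), 0.113 with all 32321 probe sets tested and 0.0502 with a replicate block. It stayed under 0.05 after median centring (0.0303), with the upper 50% of probe sets (0.0149) and with a trended and robust prior (0.00388). The same was so with array weights (0.0115) and with only the arrays compared (0.0348).

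**Figure D2:**
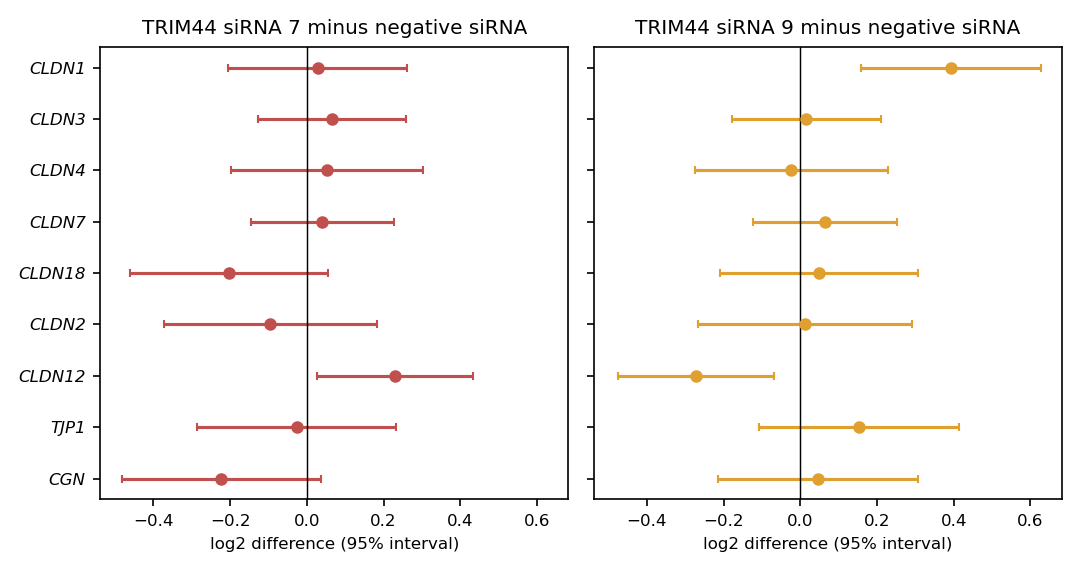
Log2 difference from negative siRNA (horizontal axis) of each tight junction gene with TRIM44 siRNA 7 (left) and TRIM44 siRNA 9 (right). Points are differences of group means and bars are 95% intervals from the fit, not adjusted for the number of genes; only CLDN12 in both panels and CLDN1 in the right panel have intervals that leave out 0.

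The scaffold genes stayed within the spread of the negative arrays or close to it. TJP1, which encodes the scaffold ZO-1, had 10.37 and 10.45 with siRNA 7 and 10.54 and 10.63 with siRNA 9, against 10.24, 10.68, 10.48 and 10.34 with negative siRNA. All 4 siRNA arrays thus lay inside the range of the negative ones, and the differences were -0.03 with siRNA 7 (adjusted p = 0.998) and 0.15 with siRNA 9 (adjusted p = 0.658). CGN, which encodes cingulin, had 8.41 and 8.41 with siRNA 7 and 8.75 and 8.61 with siRNA 9, against 8.50, 8.90, 8.63 and 8.49 with negative siRNA. Both siRNA 7 arrays lay below all other arrays, by a mean of -0.22 against negative siRNA (95% interval -0.48 to 0.04, adjusted p = 0.769) and -0.27 against siRNA 9 (adjusted p = 0.381).

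Reagent by reagent, 0 of 9 members passed against negative siRNA with siRNA 7, where 0.0679% of all probe sets passed, and 0 of 9 with siRNA 9, where 0.924% passed. At an unadjusted p under 0.05 these counts were 1 (CLDN12) and 2 (CLDN1 and CLDN12), beside 7.46% and 13.6% of all probe sets. The groups did not overlap for 2 of 9 members with siRNA 7 (CLDN12 and CGN) and for 3 of 9 with siRNA 9 (CLDN1, CLDN7 and CLDN12), beside 14.4% and 22.7% of all probe sets. Both comparisons share the negative arrays. Negative array 2 was the highest of the 4 negative arrays for 5 of the 9 members, among them CLDN1, CLDN4, TJP1 and CGN, and the lowest for CLDN2 and CLDN12; without it 1 member passed with siRNA 9, CLDN1.

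Related genes were read from 5 lists, and 0 of their 76 measured entries passed against negative siRNA with either reagent or with both. At an unadjusted p under 0.05 there were 5 with siRNA 7, 5 with siRNA 9 and 1 with both, beside 7.46%, 13.6% and 5.43% of all probe sets. The 16 other claudin genes measured, of 17 listed, had a median of -0.06 with siRNA 7 and 0.02 with siRNA 9, beside -0.0022 and 0.02 over all genes. CLDN20 had 0.18 with siRNA 7 and 0.22 with siRNA 9 (adjusted p = 0.852 and 0.460), CLDN23 had -0.09 and -0.14 (adjusted p = 0.949 and 0.605) and CLDN24 had -0.09 and -0.19 (adjusted p = 0.978 and 0.566). No claudin outside the 9 members passed between the reagents either.

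Of 10 measured genes for other membrane proteins of the tight junction, of 11 listed, the median was -0.04 with siRNA 7 and 0.03 with siRNA 9. MARVELD2 encodes tricellulin, which closes the corners where cells meet, and had 9.60 and 9.66 with siRNA 7 and 9.81 and 9.89 with siRNA 9, against 9.90, 10.06, 10.01 and 9.70 with negative siRNA. The siRNA 7 arrays lay below all others, at -0.29 against negative siRNA (adjusted p = 0.545). Its relative MARVELD3 had -0.17 with siRNA 7 and 0.18 with siRNA 9 (adjusted p = 0.788 and 0.428), and the reagents differed by -0.35 (adjusted p = 0.122). CXADR, the receptor of coxsackie and adenoviruses, had -0.03 and -0.15 (adjusted p = 0.998 and 0.564).

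The 14 measured cytoplasmic plaque genes, of 17 listed, had medians of -0.05 with siRNA 7 and -0.02 with siRNA 9. CGNL1, the paralog of cingulin, had -0.17 and -0.25 (adjusted p = 0.8293 and 0.293), and AFDN, or afadin, which ties nectins to actin, had -0.11 and 0.28 (adjusted p = 0.963 and 0.362). PATJ, a scaffold of the Crumbs complex, had -0.05 and 0.22 (adjusted p = 0.995 and 0.483). All 18 polarity genes were measured, with medians of 0.03 and 0.05. DLG1, which acts with Scribble on the lateral side, had 0.01 with siRNA 7 and 0.31 with siRNA 9 (adjusted p = 0.998 and 0.275). With siRNA 9 it passed without negative array 2 (0.40, adjusted p = 0.0337) and with array weights (0.32, adjusted p = 0.0373). PARD3B, a paralog of the polarity gene PARD3, had -0.22 and 0.04 (adjusted p = 0.664 and 0.919), and the atypical protein kinase C gene PRKCZ had -0.21 and 0.05 (adjusted p = 0.704 and 0.913).

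Among the regulators, 18 of 21 listed were measured, with medians of -0.01 with siRNA 7 and 0.03 with siRNA 9, and GRHL1 and LNX1 differed between the reagents. GRHL1 encodes a grainyhead-like transcription factor of epithelia and stood at 6.77 and 7.02 with siRNA 7 and 7.47 and 7.53 with siRNA 9, against 7.32, 7.45, 7.16 and 7.25 with negative siRNA. The siRNA 7 arrays lay below all negative arrays and the siRNA 9 arrays above them. The level with siRNA 7 was lower than that with siRNA 9 by a difference of -0.60 (SE 0.12, 95% interval -0.87 to -0.33, adjusted p = 0.0331). Against negative siRNA it had -0.40 with siRNA 7 (adjusted p = 0.290) and 0.20 with siRNA 9 (adjusted p = 0.469).

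LNX1 encodes a ubiquitin ligase that can take claudins off the membrane. It had 7.58 and 7.56 with siRNA 7 and 8.02 and 8.06 with siRNA 9, against 7.72, 7.86, 7.83 and 7.74 with negative siRNA. The 3 groups again did not overlap, in the same order as for GRHL1. The reagents differed by -0.48 (SE 0.10, 95% interval -0.70 to -0.25, adjusted p = 0.0355), and against negative siRNA the values were -0.22 with siRNA 7 (adjusted p = 0.591) and 0.26 with siRNA 9 (adjusted p = 0.207). With each array centred on its median the difference between the reagents was -0.58 for GRHL1 (adjusted p = 0.0508) and -0.45 for LNX1 (adjusted p = 0.0564). Both calls held after quantile normalization (adjusted p = 0.0396 for GRHL1 and 0.0353 for LNX1) and with array weights (0.0120 and 0.0131). They also held with a trended and robust prior (0.0186 and 0.0283) and with only the arrays compared (0.0247 and 0.0333). With all 32321 probe sets tested, neither call held (adjusted p = 0.116 for GRHL1 and 0.102 for LNX1). With array weights the siRNA 9 difference of LNX1 from negative siRNA passed (0.24, adjusted p = 0.0475). Both calls between the reagents also ended with each of the 2 siRNA 7 and 2 siRNA 9 arrays and negative arrays 1 and 3 left out in turn, with adjusted p of 0.0507 to 0.241. SNAI1, a repressor of claudin genes, had 0.28 with siRNA 7 and 0.06 with siRNA 9 (adjusted p = 0.591 and 0.889).

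**Figure D3:**
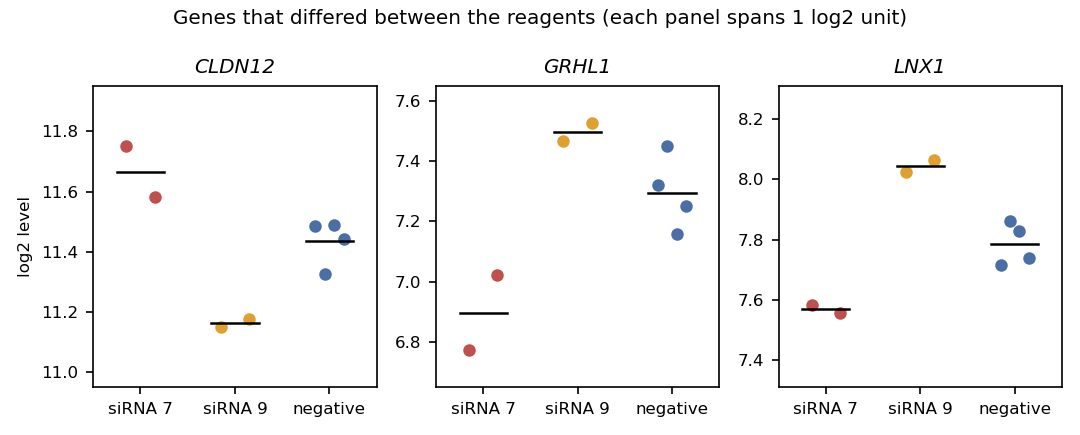
Log2 level (vertical axis) of CLDN12, GRHL1 and LNX1 on each array, by group (TRIM44 siRNA 7, n = 2; TRIM44 siRNA 9, n = 2; negative siRNA, n = 4); points are arrays and bars are group means. In each panel the negative arrays lie between the reagents, with siRNA 7 above siRNA 9 for CLDN12 and below it for GRHL1 and LNX1.

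Between the reagents, 1 of 9 members and 2 of the 76 entries of the other lists passed, beside 2.23% of all probe sets, which was 428, with 157 higher with siRNA 7 and 271 lower; after median centring it was 351, with 181 higher and 170 lower. The median difference of the 9 members was -0.11, with 3 above 0 and 6 below, beside -0.03 over all genes. The reagents did not overlap for 6 of the 9 members, and 48.6% of all probe sets did not overlap between 2 arrays and 2. TRIM44 differed by -0.06 between the reagents (95% interval -0.36 to 0.24, adjusted p = 0.903).

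**Figure D4:**
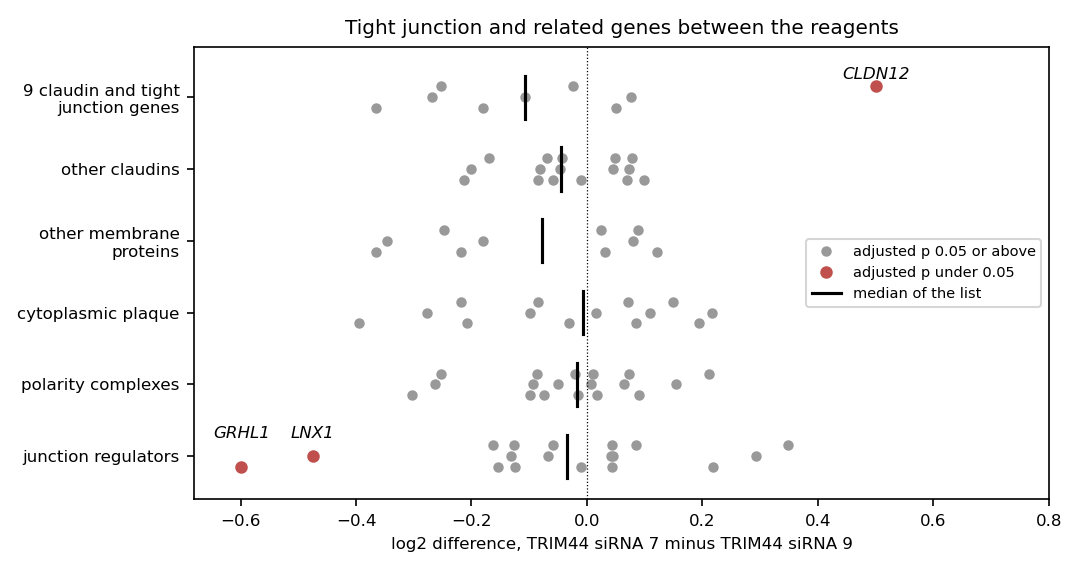
Log2 difference between TRIM44 siRNA 7 and TRIM44 siRNA 9 (horizontal axis) for the 9 tight junction genes and the 5 lists of related genes; each point is a gene, black bars are list medians, and red points passed an adjusted p of 0.05 over all probe sets. CLDN12 lies at 0.50, GRHL1 at -0.60 and LNX1 at -0.48, while the list medians run from -0.11 to -0.01.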

How the data were processed

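Per the labels' protocols, biotin-labelled sense cDNA was hybridised to whole-transcript arrays, and limma is named in the submitters' processing notes. The deposited values are log2 levels for 32321 probe sets; ranked values of any 2 arrays were within 0.180 of each other at every rank. The normalization, build and filters the authors used are not stated in the labels. Of the probe sets, 19158 with 1 gene symbol in the platform annotation were tested without a filter on level; 1388 with several symbols and 11775 with none were not. Where a gene had several, that with the highest mean was taken.

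With limma 3.58.1 in R 4.3.3, both reagents together were set against negative siRNA in a fit of 2 groups, and the reagents with negative siRNA and with each other in a fit of 3 group means over all 8 arrays. P-values are 2-sided and moderated, adjusted by Benjamini and Hochberg's method across all 19158, with calls at 0.05. The fits were tested on simulated data. The members and lists were chosen with earlier results of these data known. Named genes were TRIM44, all members, the 3 genes of each list with the smallest unadjusted p in either reagent comparison, any list gene past the threshold, and the 3 genes most like the member of widest spread. Alternatives were other normalizations, filters, priors, array weights, blocks and samples. Promoter sequences came from RefSeq (GRCh38.p14).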

Additional observations from a re-analysis of the deposited data

Results flagged for a closer look

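CLDN12, GRHL1 and LNX1 were picked out because the test of the difference between the 2 TRIM44 reagents passed. The log2 difference, siRNA 7 minus siRNA 9, was 0.50 for CLDN12, -0.60 for GRHL1 and -0.48 for LNX1. In each the siRNA 7 and siRNA 9 arrays lay on opposite sides of the negative arrays, and TRIM44 itself stood at 11.06 with siRNA 7 and 11.12 with siRNA 9. The same values picked these genes, so the separation of the reagents is not further support. The share of all probe sets with this order was not computed. For GRHL1 the lower siRNA 9 array, at 7.47, lay just above the highest negative array, at 7.45. CLDN24 was picked out because negative array 3, at 4.55, lay far above the other negative arrays, at 4.21 to 4.23; 50 groups of 4 arrays were looked at, and chance alone picks out about 1 in 20.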

How the results depend on the processing

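Of 573 recomputed differences of the 9 members, 532 kept the reported sign and 41 did not. Those 41 had a reported size of at most 0.107. Alternatives that changed only the spread, the prior or the probe sets tested could not change a difference. Nor could omitting an array outside the comparison. The count of 532 therefore includes signs kept by construction. While 3 member calls were gained, the 1 reported member call, CLDN12 between the reagents, was lost in several alternatives. For TRIM44 siRNA against negative siRNA, 1 probe set was called as reported, 0 after median centring, with all probe sets and with the siRNA as a random block, 2 with the upper 50% of probe sets and with a trended and robust prior, 4 with 3 group means and 33 with array weights. The TRIM44 difference no longer passed after median centring (-0.81, adjusted p = 0.108), with all probe sets (-0.81, adjusted p = 0.442) or with the random block (-0.81, adjusted p = 0.108). For siRNA 7 against negative siRNA, 13 were called as reported, 1 after median centring and with only the arrays compared, 64 with the upper 50%, 0 with all probe sets, 83 with the trended prior and 70 with array weights. For siRNA 9 the 177 became 390 with the upper 50%, 28 with all probe sets, 405 with the trended prior and 2082 with array weights, which called 2 members. Between the reagents the 428 became 703 with the upper 50%, 8 with all probe sets, 792 with the trended prior, 1063 with array weights and 807 with only the arrays compared. CLDN12 was not called after quantile normalization (0.44) or with all probe sets (0.50), which left 0 members called. The cause of these changes was not tested.

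With 1 array omitted, calls ranged from 0 to 2 for both reagents together, from 1 to 35 for siRNA 7, from 0 to 1067 for siRNA 9 and from 0 to 1050 between the reagents, the highest of the last 3 each without negative array 2. Members called ranged from 0 to 1 for siRNA 9 and from 0 to 1 between the reagents. The TRIM44 difference ranged from -0.87 to -0.73 and that of CLDN12 between the reagents from 0.42 to 0.59.

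Whether replicate numbers shared across groups pair the arrays is not known. Deviations of same-numbered arrays from their group means correlated at 0.02 to 0.31. Differently numbered arrays were not compared, so these values cannot decide it. With a replicate block, 0, 0, 44 and 450 probe sets were called in these comparisons. Replicate numbers 3 and 4 exist only for negative siRNA. The block therefore left negative arrays 3 and 4 without weight in the differences from negative siRNA. In that fit TRIM44 differed by -0.88 (adjusted p = 0.998). CLDN12 differed by 0.50 between the reagents (adjusted p = 0.0502), with 0 members called. Under the same block LNX1 differed by -0.48 (adjusted p = 0.0546) and GRHL1 by -0.60 (adjusted p = 0.0301), so the call on LNX1 was also lost. The table holds no signal over background, so what dim probe sets can show is not known.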
